A study of Homo sapiens with 4 samples.

Results

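Androgen receptor target genes outside the kallikrein cluster were examined for open chromatin in prostate cancer cells before and after they became resistant to enzalutamide. The 32 genes were listed by name as genes that respond to androgen in prostate cells, by a rule that holds no measured value, out of 20033 protein-coding genes of the RefSeq annotation of GRCh38.p14. All 32 were found in the annotation, and their genes with 20 kb on either side held 360 of the 150917 regions in which any library had an accessibility peak. The androgen receptor is a nuclear receptor that enters the nucleus after it binds dihydrotestosterone, binds DNA at paired half-sites of the form AGAACA, often where the forkhead factor FOXA1 has opened the chromatin, and recruits coactivators. Most of its binding sites in prostate cells lie in introns and between genes rather than at promoters. Enzalutamide is an antagonist of the ligand-binding domain that keeps the receptor from acting on its targets.

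ATAC-seq, in which a transposase cuts and tags open DNA, was run on 2 libraries of LNCaP, an androgen-sensitive human prostate cancer line labelled wild type and given no treatment in the labels, and on 2 libraries of LNCaP-resistance cells, labelled as treated with enzalutamide. The resistant cells were derived by the study from LNCaP in androgen-depleted serum with stepwise rising enzalutamide, while the growth label gives the same full-serum medium for both, so drug, medium and the derivation of the subline cannot be told apart. The labels do not say which of the study's resistant sublines was used. The replicate libraries carry batch labels of repeat1 and repeat2, and nothing states that they came from separate cultures.

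Each library came as a list of peak summits, 1 position per peak with a score on a −log10 scale, called on that library alone. The lists held 117245 and 107344 summits in LNCaP and 70866 and 45618 in the resistant cells, and no read counts, so the depth is unknown. A summit is described here by its percentile, the percent of summits in its own library with an equal or lower score, and a gene with no summit in a window has percentile 0. Because the resistant lists were shorter, a summit of middling rank in LNCaP could fall off the resistant list, so calls were also made on 2 other scales. One scale kept the 45618 strongest summits of every library and the other ranked scores among the regions that all 4 libraries shared. An exact permutation test of 2 libraries against 2 cannot give a two-sided p below 0.333, so no test could pass a threshold. A value is called lower or higher only where both resistant libraries lie outside the range of both LNCaP libraries, and each count is set beside the share of all protein-coding genes or regions that met the same rule. The luminal markers KRT8, KRT18, HOXB13, KLK3 and FOXA1 had a summit within 3 kb of a gene end in all 4 libraries, and the neighbours KRT8 and KRT18 shared theirs, at 94.8 and 95.4 in LNCaP and 96.5 and 95.7 in the resistant cells.

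The sequences just upstream of 4 member starts are shown because the accessibility at these starts is described below as lost or as higher, or because they carry the closest match to a full androgen response element. They are the 250 bases before the RefSeq start on GRCh38.p14, 5′ to 3′ on the strand of the gene, and capitals mark exact matches, on either strand, to the half-site AGAACA, the forkhead motifs TGTTTAC and TGTTTGC, the ETS motif CCGGAA or the GC box GGGCGG. The TRPM8 start lies inside the gene on the plus strand, with the shown bases at chr2:233953503-233953752. Those of CAMKK2 lie at chr12:121296710-121296959 on the minus strand, those of STEAP2 at chr7:90211490-90211739 on the plus strand, and those of PMEPA1 at chr20:57710578-57710827 on the minus strand.
TRPM8: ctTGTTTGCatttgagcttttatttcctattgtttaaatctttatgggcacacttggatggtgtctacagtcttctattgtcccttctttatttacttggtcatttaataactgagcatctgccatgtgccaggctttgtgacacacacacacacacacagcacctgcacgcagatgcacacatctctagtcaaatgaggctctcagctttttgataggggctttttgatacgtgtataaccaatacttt
CAMKK2: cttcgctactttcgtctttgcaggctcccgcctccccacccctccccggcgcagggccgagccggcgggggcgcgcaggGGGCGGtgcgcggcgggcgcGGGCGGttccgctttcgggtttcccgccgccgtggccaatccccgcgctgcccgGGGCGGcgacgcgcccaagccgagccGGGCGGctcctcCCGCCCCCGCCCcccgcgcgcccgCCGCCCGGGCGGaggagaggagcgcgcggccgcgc
STEAP2: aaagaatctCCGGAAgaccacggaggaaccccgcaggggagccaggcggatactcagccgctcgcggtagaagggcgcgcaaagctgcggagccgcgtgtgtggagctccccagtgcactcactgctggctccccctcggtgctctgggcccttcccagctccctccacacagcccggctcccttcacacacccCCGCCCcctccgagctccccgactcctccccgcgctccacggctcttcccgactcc
PMEPA1: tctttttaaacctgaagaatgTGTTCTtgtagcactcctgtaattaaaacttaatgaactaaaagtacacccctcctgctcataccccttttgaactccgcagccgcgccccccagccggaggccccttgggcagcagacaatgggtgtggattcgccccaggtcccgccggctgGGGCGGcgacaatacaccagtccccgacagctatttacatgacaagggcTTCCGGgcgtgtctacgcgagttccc

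By plain percentile across the 32 genes, the strongest summit away from the gene ends was lower in the resistant cells in most members. At the gene ends the members did not move one way on that scale. Both patterns depended on the scale. With equal numbers of summits, 14 of 31 members were lower away from the ends, and most members, like most genes, were higher at the gene ends. The strongest summit over 3 kb from both ends was lower in both resistant libraries in 23 members, which is 71.9% against 54.1% of all protein-coding genes, higher in 2 members against 11.1% of all genes, and overlapped in 7. Its median change was −14.07 percentile points over the members and −8.62 over all genes, but the margin between these medians depended on the setting. It was −1.35 against 1.84 with equal numbers of summits, −9.10 against −3.32 on the shared-region scale, −5.48 against −4.26 without resistant replicate 2, −4.78 against −4.36 with flanks of 50 kb and −7.78 against −7.72 with gene ends of 1 kb. The strongest summit of a gene need not lie in the same region in every library. Among the libraries with a summit it did so in 12 members away from the ends and in 20 at the ends. Longer genes have more room for such summits, and the members were long, with a median of 57.9 kb against 24.1 kb. Among genes between the members' quartiles of length, 32.5 to 83.0 kb, 12 of 16 members and 58% of all genes were lower, with median changes of −16.1 and −10.2. With equal numbers of summits, 14 members were lower and 5 higher against 30.1% and 36.7% of all genes, and on the shared-region scale 17 were lower and 3 higher against 43.3% and 24%. Thus a larger share of members than of genes was lower on each of the 3 scales, a difference that was not tested. The 14 members lower away from the ends on all 3 scales were ACP3, ACSL3, CAMKK2, HERC3, MAF, MED28, NCAPD3, NNMT, PLPP1, RAB3B, SLC45A3, SORD, TMPRSS2 and TRPM8, and SPDEF and ZBTB10 were higher on all 3. The share of all genes called on all 3 scales together was not computed. The 3 scales rank the same scores, so they are not separate evidence.

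The strongest summit within 3 kb of either gene end was lower in 10 members, 31.3% against 28.4% of all protein-coding genes, higher in 5, 15.6% against 23.8%, and overlapping in 17. Its median change was −1.74 against −0.44 over all genes. This balance depended on the scale. With equal numbers of summits 5 members were lower and 19 higher against 8.71% and 61.6% of all genes, and on the shared-region scale 6 were lower and 15 higher against 17.2% and 45%, with median changes of 13.4 and 5.19 that lay close to the medians of all genes, 13.2 and 5.38. The members whose gene ends were lower on all 3 scales were EAF2, NNMT, SPDEF, TRPM8 and ZBTB10, and those higher on all 3 were CENPN, MAF, PLPP1, SORD and STEAP2. A further 10 members, C1orf116, ELK4, ELL2, HERC3, NCAPD3, NDRG1, RAB3B, SLC45A3, TMPRSS2 and TPD52, overlapped at the gene ends by plain percentile but were higher on both other scales. The shares of all genes with these joint calls were not computed. The lower gene ends of ACP3, ACSL3 and MED28 overlapped on both, and that of CAMKK2 overlapped with equal numbers of summits. Away from the ends, the lower calls of C1orf116, ELL2, FKBP5, NDRG1 and PTGER4 overlapped on both, and GNMT turned from lower to higher. Leaving out resistant replicate 2, the shortest list, gave 16 members that were higher at a gene end against 44.7% of all genes, and comparison within replicate numbers (the replicate block) gave 9 against 30.0%.

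**Figure D1:**
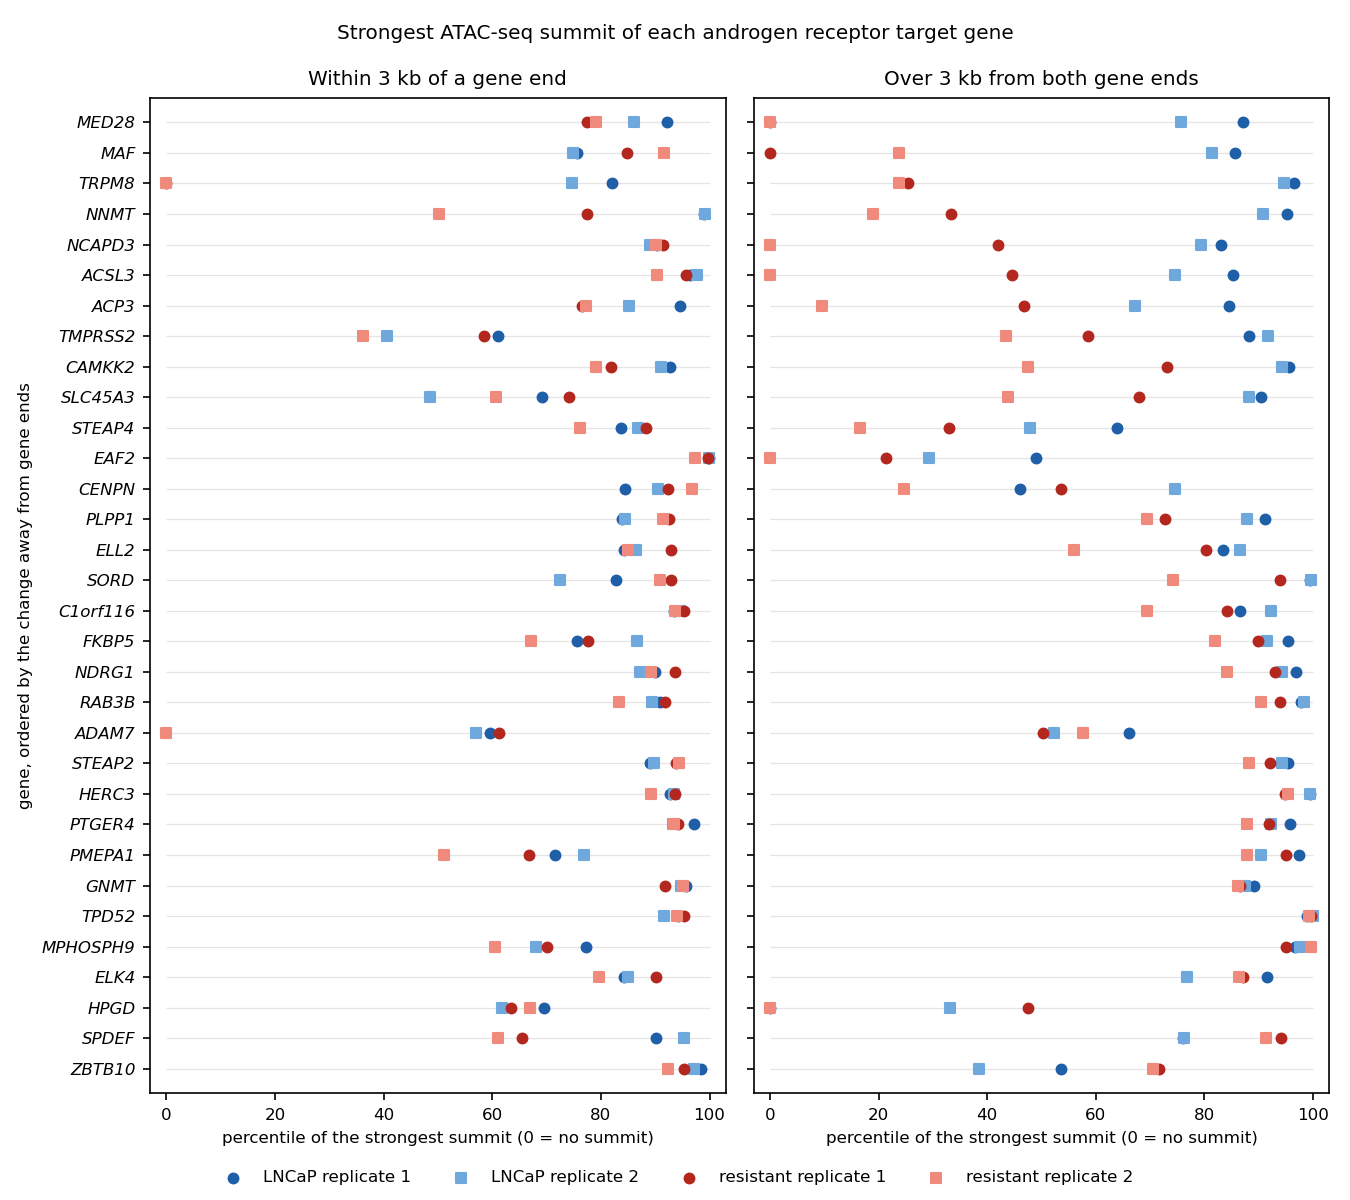
Percentile of the strongest summit of each of the 32 genes in each library, within 3 kb of a gene end (left) and over 3 kb from both ends (right), with genes ordered by the change on the right and 0 meaning no summit. The resistant libraries (red) lie left of the LNCaP libraries (blue) for 23 genes on the right and for 10 on the left.

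The members were not set apart from other genes by the plain presence of summits. Of the 360 regions, 87 had a summit in all 4 libraries, 101 in both LNCaP and neither resistant library (LNCaP-only), 9 in both resistant and neither LNCaP library (resistant-only), and 163 showed some other pattern. The LNCaP-only share was 28.1% against 26.3% of all regions in protein-coding gene windows, and the resistant-only share 2.5% against 3.8%. These numbers moved with the lists. With equal numbers of summits 35 regions were LNCaP-only and 24 resistant-only, 17.9% against 16.2% and 12.3% against 14.7%, and without resistant replicate 2 there were 30 resistant-only regions, 8.38% against 11.6%. Within 3 kb of a gene end, 12 of 80 regions (15%) were LNCaP-only against 13.3%, and 2 were resistant-only against 5.1%. Inside the genes, 63 of 191 regions (33.0%) were LNCaP-only against 32.3%, and 6 were resistant-only against 3.09%. In the flanks 26 of 89 regions (29.2%) were LNCaP-only against 21.9%, and 1 was resistant-only against 4.53%. Only the flanks held a share more than 3 points above that of all genes. Of the 89 flank regions, 13 lay within 3 kb of an end of another protein-coding gene, and so did 3 of the 26 LNCaP-only ones. The gene that such a region belongs to is not given by its position.

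The number of summits fell in step with the lists. The member windows held 298 and 284 summits in LNCaP and 175 and 120 in the resistant cells, a similar share of each list. Both resistant libraries had fewer summits than both LNCaP libraries in 24 members against 52.2% of all genes, or in 13 of 16 members against 59.5% of genes between the quartiles of length. No member had more, against 2.44% of all genes. The members FKBP5, GNMT, HPGD, SPDEF, STEAP4 and ZBTB10, had no LNCaP-only region. The LNCaP-only regions were mostly of middling strength, with a median LNCaP percentile of 45.6 against 47.8 for all such regions, and 15 of the 101 lay above percentile 75. A summit marks only the top of a peak, and 9 of the 101 had a resistant summit within 1000 bp, so a lost summit is not always a lost peak.

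**Figure D2:**
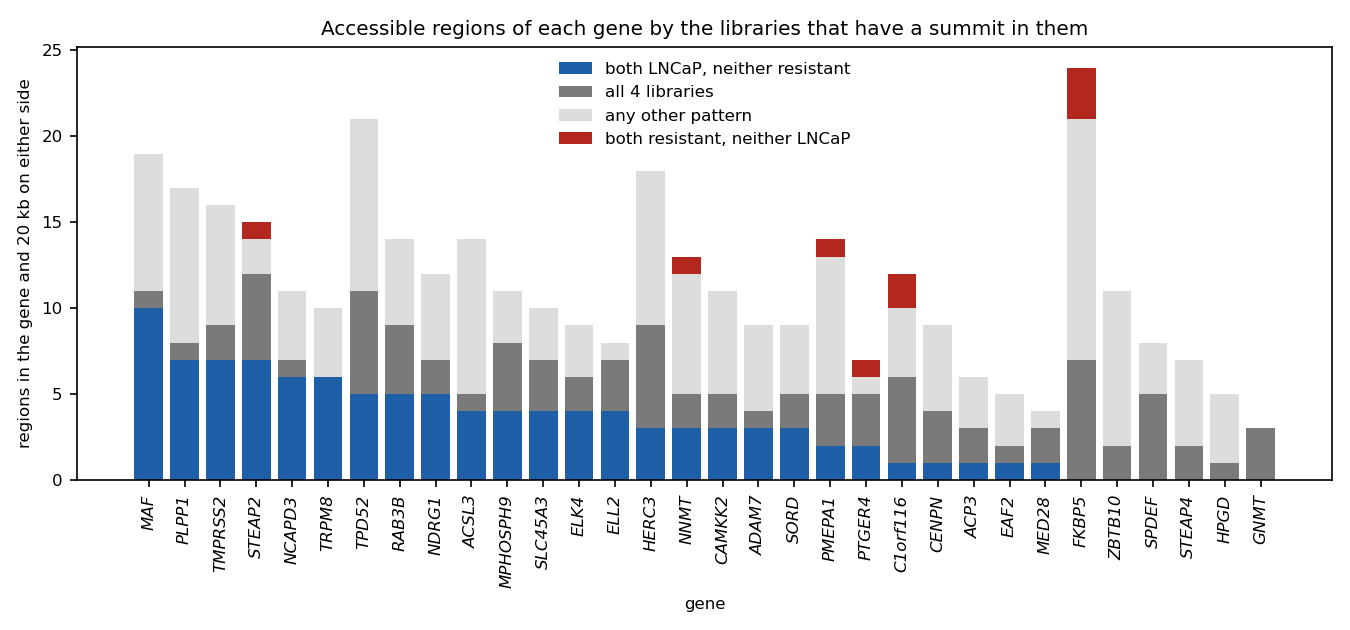
Number of regions in each gene with 20 kb on either side, split by the libraries with a summit in the region. MAF has 10 LNCaP-only regions (blue) and FKBP5, with 24 regions in all, has none and 3 resistant-only regions (red), some of them weak.

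The members were also grouped by role into sets of 5 to 8 genes, and differences between these sets and all genes were not tested. Membrane proteins and proteases held 29 LNCaP-only regions among 74, 39.2% against 26.3% of all regions, and 2 resistant-only regions, 2.70% against 3.8%. The strongest summit away from the ends was lower in 6 of 7 genes, 85.7% against 54.1% of all genes. At a gene end 1 was lower and 1 higher, 14.3% each against 28.4% and 23.8%. TMPRSS2, a transmembrane serine protease whose androgen-driven promoter is fused to ERG in many prostate tumours, had 15 and 13 summits in LNCaP and 5 and 4 in the resistant cells, and 7 of its 16 regions were LNCaP-only. It is transcribed from its higher-coordinate end. At that end, chr21:41507852-41508548, the percentiles were 61.0 and 40.7 in LNCaP and 58.5 and 24.9 in the resistant cells, so the groups overlapped at the promoter. The strongest summit near either end also overlapped, while on both other scales it was higher in the resistant cells. In the upstream flank, a region 18735 bp beyond the end, chr21:41526635-41527151, stood at 88.3 and 91.7 in LNCaP and had no resistant summit, although resistant replicate 1 had one 896 bp away at percentile 33.8. A second, 12663 bp beyond the end, stood at 79.7 and 76.2 in LNCaP with a summit of resistant replicate 2 at 793 bp, and another, 13541 bp beyond the end, stood at 59.6 and 65.4 in LNCaP, was absent in resistant replicate 1 and stood at 9.6 in replicate 2. Inside the gene, 6941 bp from the higher end, 1 region was kept by all 4 libraries, at 76.9 and 73.7 in LNCaP and 53.0 and 43.4 in the resistant cells. Beyond the opposite end, 3504 bp from it, the region chr21:41460547-41461057 stood at 67.0 and 76.6 in LNCaP, at 58.6 in resistant replicate 1 and at no summit in replicate 2. The strongest summit away from the ends, taken from 3 different regions in the 4 libraries, was 88.3 and 91.7 in LNCaP and 58.6 and 43.4 in the resistant cells. It changed by −39.0, against a pooled SD of 7.78 between replicates, by −35.7 with equal numbers of summits and by −44.3 on the shared-region scale.

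TRPM8, a cation channel opened by cold and menthol, was the only member with no region shared by all 4 libraries. It had 8 and 10 summits in LNCaP and 3 and 1 in the resistant cells, and 6 of its 10 regions were LNCaP-only. The strongest, chr2:233953326-233954160, lay 36323 bp inside the gene at percentiles 96.5 and 94.6, with its summits 150 and 177 bp before the annotated start whose upstream bases are shown above. The nearest resistant summits were 12143 and 23118 bp away. A region 23747 bp inside the gene stood at 87.9 and 90.0 in LNCaP and a region 1036 bp beyond the 3′ end at 82.0 and 74.7, and neither had a summit in either resistant library. At a further annotated start, with a region 59260 bp into the gene, LNCaP stood at 71.6 and 78.6, resistant replicate 1 had no summit and resistant replicate 2 stood at 23.8. The most upstream annotated start had no summit within 1000 bp in any library. The gene-end change of −78.4 (pooled SD 3.68) was the largest fall of the 32 members, and it became −47.1 with equal numbers of summits.

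STEAP2, a metalloreductase of prostate epithelium, had more LNCaP-only regions per length than any other member, 7 regions or 9.77 per 100 kb, ahead of TMPRSS2 at 8.35. Its promoter moved the other way. At the start whose sequence is shown, chr7:90211427-90212064, percentiles were 77.6 and 79.3 in LNCaP and 93.9 and 94.4 in the resistant cells, a change of 15.7 with a pooled SD of 0.9 over 2 libraries each. The 7 LNCaP-only regions stood between 13.6 and 75.5, the highest being 18716 bp upstream of the start, at 75.5 and 74.4. A region 19755 bp into the gene stayed strong, at 95.4 and 94.3 against 92.1 and 88.2. Its relative STEAP4 had no LNCaP-only region, with gene-end percentiles of 83.8 and 86.8 against 88.3 and 76.1 and away summits of 63.9 and 47.8 against 33.0 and 16.5.

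**Figure D3:**
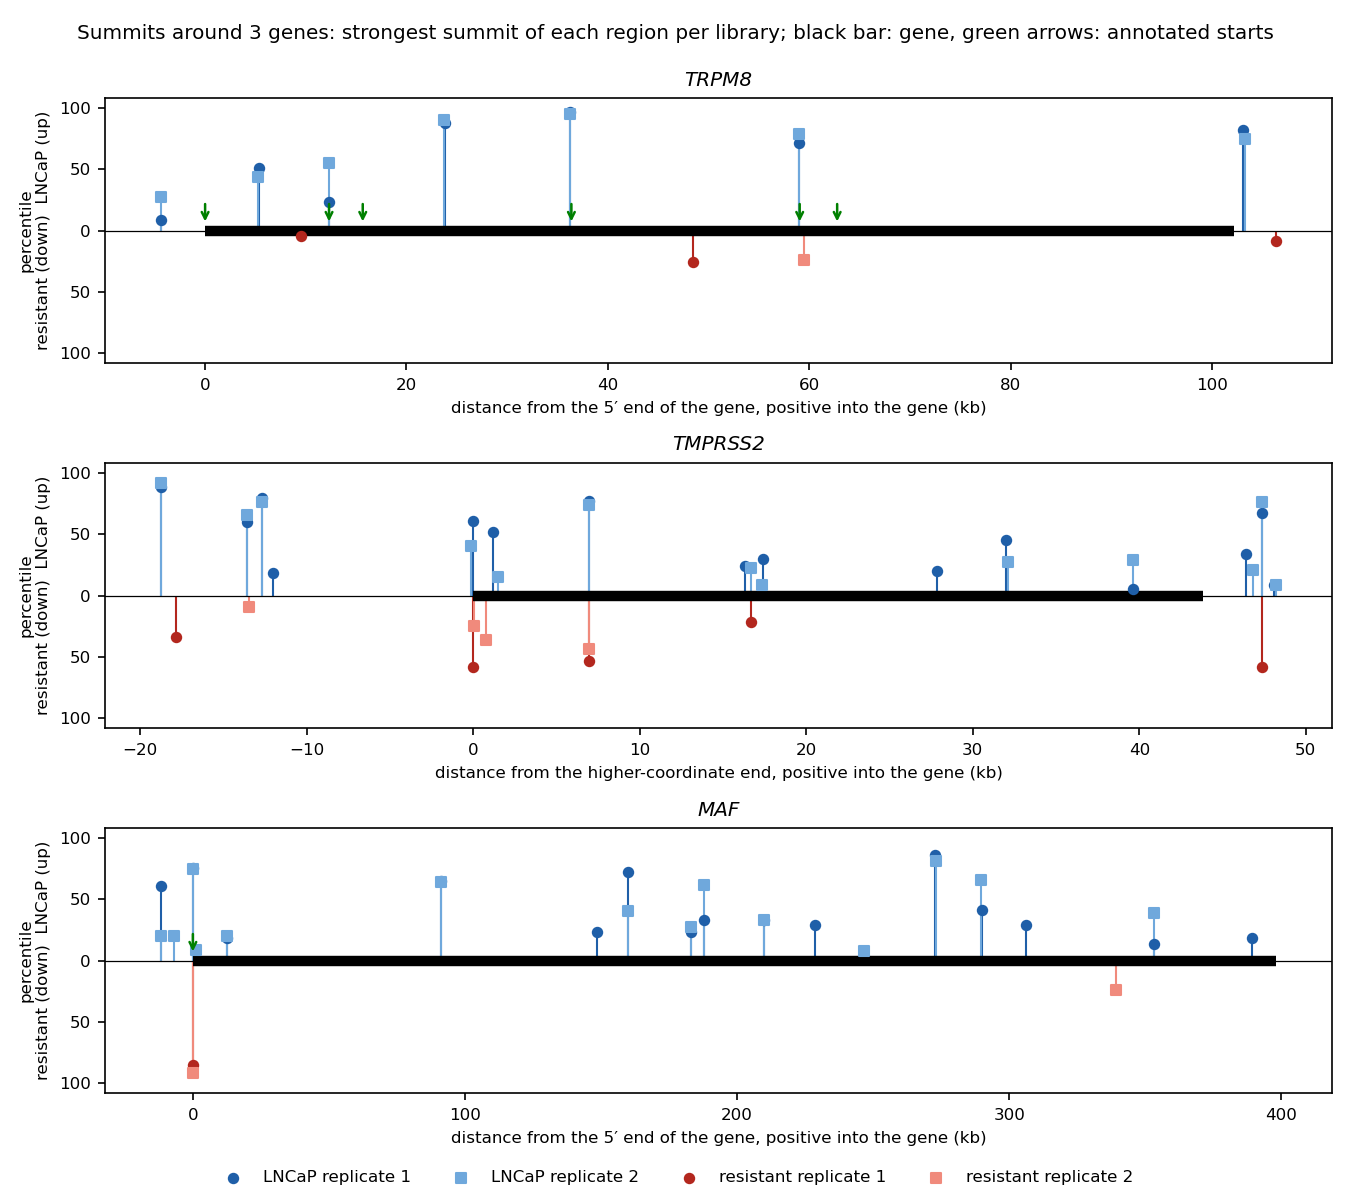
Percentile of the strongest summit of each region by distance along TRPM8, TMPRSS2 and MAF, with LNCaP libraries drawn upward, resistant libraries downward, the gene as a black bar and annotated starts as green arrows. In MAF the resistant summits stand at the promoter, and most of the gene body has LNCaP summits alone.

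PTGER4, the prostaglandin E2 receptor EP4, kept a strong promoter at 97.2 and 93.3 against 94.1 and 93.5, but the summit sat 64 and 82 bp upstream of the start in LNCaP and 671 and 533 bp upstream in the resistant cells. A region 10018 bp upstream stood at 95.8 and 89.2 in LNCaP and at no summit in the resistant cells, whose nearest summits were 9347 and 9485 bp away. A resistant-only region 9733 bp into the gene stood at 70.6 and 59.2, with LNCaP summits 1328 and 1322 bp away. SLC45A3, the prostate transporter prostein, had overlapping gene-end values, 69.1 and 48.5 against 74.2 and 60.8. With equal numbers of summits these were 20.6 and 0 against 59.9 and 60.8, and on the shared-region scale 34.7 and 18.2 against 49.6 and 50.1, higher in the resistant cells on both. Its strongest away summits, 90.3 and 88.1 against 67.9 and 43.8, were lower on all 3 scales. ADAM7, an ADAM-family membrane protein, had 3 LNCaP-only regions and overlapped in both places, with a gene-end summit in resistant replicate 1 at 61.2 and none in replicate 2.

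Metabolic enzymes had lower away summits in 7 of 8 genes, 87.5% against 54.1% of all genes, with 21 LNCaP-only regions among 78, 26.9% against 26.3% of all regions. At a gene end 4 were lower and 2 higher, 50% and 25% against 28.4% and 23.8% of all genes. NNMT methylates nicotinamide. A region 2498 bp beyond its higher-coordinate end, chr11:114315750-114316309, was among the strongest of LNCaP at 98.9 and 99.1 and stood at 60.5 and 50.2 in the resistant cells, and it was lower on every scale. Another, 4768 bp inside that end, stood at 95.1 and 90.8 in LNCaP, at 4.7 in resistant replicate 1 and at no summit in replicate 2. Near the lower-coordinate end, 1477 bp inside the gene, the order was reversed, with 30.3 and 27.4 in LNCaP and 77.4 and 33.1 in the resistant cells, a difference of 26.4 that is close to the pooled SD of 22.2.

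CAMKK2, a calcium-activated kinase that phosphorylates AMPK, gained rank at its start and lost regions around it. It was counted as lower at a gene end, but that call compared different regions. The strongest gene-end summit lay at the 3′ end in LNCaP and at the start in the resistant cells. At the start whose GC-rich upstream bases are shown, percentiles were 51.2 and 62.4 in LNCaP and 81.8 and 79.1 in the resistant cells. A region 2581 bp upstream of the gene stood at 86.8 and 80.7 in LNCaP and a region at the 3′ end, 120 bp inside the gene, at 92.7 and 91.1, and neither had a resistant summit within 3 kb. A region 10219 bp past the 3′ end was kept by all 4 libraries and fell from 95.6 and 94.3 to 73.0 and 47.4. The rise at the start was 23.7 percentile points (pooled SD 5.8). On the equal-number scale it was 69.6, with LNCaP replicate 1 below the cut, and on the shared-region scale 44.0. Rises are more common on both of those scales.

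PLPP1, a phospholipid phosphatase, had 7 LNCaP-only regions among 17, and 1 region kept by all libraries, 13588 bp inside its lower-coordinate end, fell from 91.1 and 87.8 to 72.6 and 69.4. Its strongest gene-end summit rose from 83.8 and 84.4 to 92.5 and 91.5. SORD, sorbitol dehydrogenase, rose likewise at an end, from 82.8 and 72.6 to 93.0 and 90.8, and fell away from the ends, from 99.5 and 99.6 to 93.9 and 74.2. ACP3, prostatic acid phosphatase, fell in both places, from 94.5 and 85.2 to 76.5 and 77.4 at its start and from 84.5 and 67.3 to 46.9 and 9.6 at a region 29899 bp into the gene. On both other scales the gene-end values of ACP3 overlapped. ACSL3, an acyl-CoA synthetase that feeds lipid droplets, had a strong promoter that was lower in the resistant cells, at 96.4 and 97.7 against 95.6 and 90.3. It had 4 LNCaP-only regions, and its strongest away summits, in 2 different regions, were 85.2 and 74.6 against 44.6 and no summit. On both other scales its gene-end values overlapped. GNMT, which methylates glycine, was small in change, with promoter values of 95.6 and 94.8 against 91.8 and 95.1, while a region 6251 bp upstream fell from 86.6 and 87.5 to 69.5 and 30.3. HPGD, the prostaglandin-degrading dehydrogenase, overlapped at its end (69.6 and 61.8 against 63.5 and 66.9) and had away summits in only 1 library of each group.

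Transcription and elongation factors had 4 of 7 genes lower and 1 higher at a gene end, 57.1% and 14.3% against 28.4% and 23.8% of all genes. Away from the ends 4 were lower and 2 higher, 57.1% and 28.6% against 54.1% and 11.1%. MAF, a basic leucine zipper factor, had 15 summits in each LNCaP library and 1 and 2 in the resistant cells. Its promoter rose, at chr16:79600606-79601495, from 75.6 and 74.8 to 84.9 and 91.6. Behind it, 10 regions were LNCaP-only, 9 of them inside the annotated gene and 1 located 11645 bp upstream, with percentiles from 13.3 to 85.7. The strongest stood at 85.7 and 81.3, 272910 bp into the gene, and the nearest resistant summits were 273029 and 66202 bp away. The annotated gene spans 398 kb, the longest of the members, and resistant replicate 2 alone had a summit in its body, at 23.8.

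SPDEF, an ETS factor of luminal epithelium, was, with ZBTB10, a member with a lower gene end and a higher summit away from the ends. Its strongest gene-end summit lay past the 3′ end, except in resistant replicate 2, where it lay at the start. A region 1110 bp past its 3′ end, chr6:34536427-34536965, fell from 90.1 and 95.3 to 65.4 and 51.5. The start fell from 72.9 and 80.8 to 63.1 and 61.1 by plain percentile, but its values overlapped on both other scales. With equal numbers of summits they were 30.3 and 54.9 against 42.6 and 61.1. A region 9469 bp into the gene fell from 76.1 in both to 47.8 and 31.4. In contrast, the region 5876 bp past the 3′ end, chr6:34531661-34532182, rose from 34.9 and 33.8 to 94.1 and 91.3. That rise of 58.3 (pooled SD 1.5) was the largest among the 87 shared regions. It was 91.1 with equal numbers of summits, where the cut removed the region's summits from both LNCaP lists, and 79.2 on the shared-region scale. Rises are more common on those scales, where 53.3% and 37.4% of all shared regions were higher against 18.7% by plain percentile. The larger values are thus not further support. The region lies 3297 bp from an end of PACSIN1, so the gene it belongs to is not given by its position.

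ZBTB10, a zinc finger repressor, was lower at its end on all scales, from 98.5 and 97.2 to 95.3 and 92.4, and higher away from the ends, from 53.6 and 38.5 to 71.6 and 70.6. EAF2, an ELL-associated elongation factor induced by androgen, had the strongest promoter of the members, 99.9 and 99.97 in LNCaP and 99.8 and 97.3 in the resistant cells, and its away summits were lower at 49.0 and 29.2 against 21.4 and no summit. Its partner ELL2 overlapped at a gene end (84.2 and 86.4 against 92.8 and 85.0) and its strongest away summits were 83.5 and 86.4 against 80.3 and 56.0, with 4 LNCaP-only regions. This lower call did not hold on either other scale, where the values overlapped, with a change of −0.10 with equal numbers of summits. MED28, a Mediator subunit, had ends that moved in opposite directions. At its lower-coordinate end, 36 bp before the gene, a shared region rose from 61.7 and 67.4 to 77.5 and 79.1, and a shared region 2890 bp beyond its higher end fell from 92.1 and 86.2 to 58.2 and 9.6. The lower call for the strongest summit at either end compared these 2 regions, and it overlapped on both other scales. MED28 also had the largest fall away from the ends, from 87.0 and 75.6 to no summit in either resistant library, at a region 16885 bp beyond its lower end. ELK4, an ETS factor, overlapped in both places, with 84.3 and 85.0 against 90.1 and 79.7 at its end. ELK4 and SLC45A3 lie next to each other and share 2 of the 360 regions, of which 1 was LNCaP-only.

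**Figure D4:**
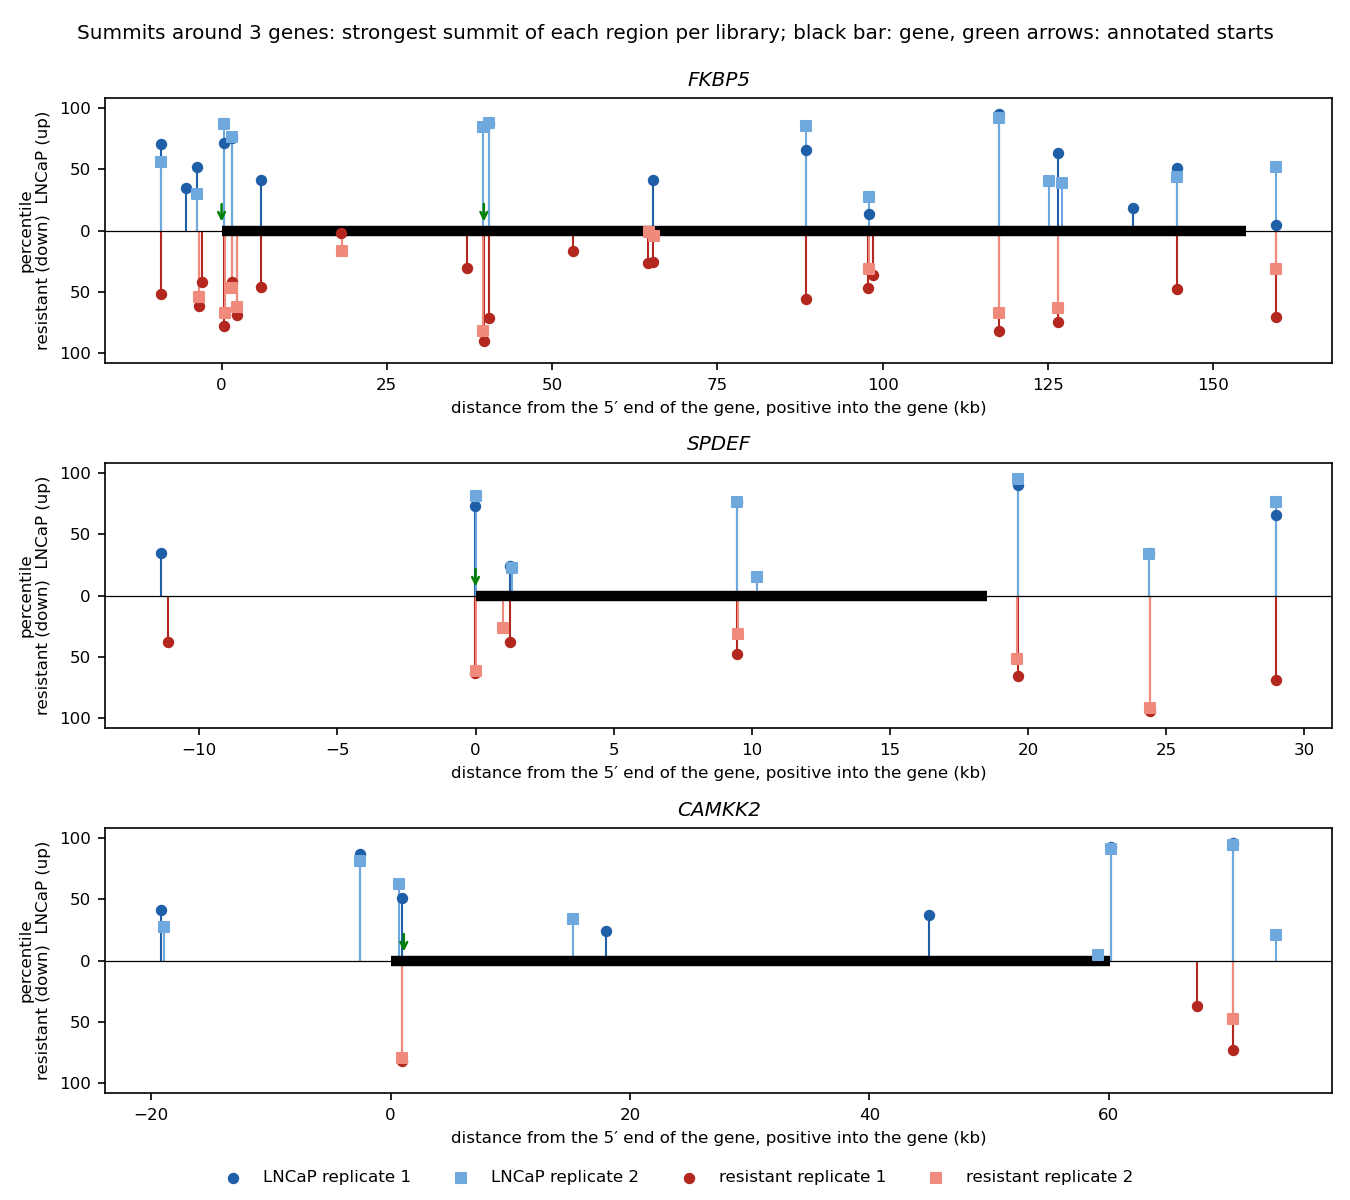
Percentile of the strongest summit of each region by distance along FKBP5, SPDEF and CAMKK2, drawn as for TRPM8. In SPDEF the region about 24 kb from the 5′ end stands near 34 in LNCaP and above 90 in the resistant libraries, while its other shared regions in and near the gene are mostly lower.

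Hormone and growth signalling genes held 6 of the 9 resistant-only regions and 11 LNCaP-only regions among 80, 7.5% and 13.8% against 3.8% and 26.3% of all regions. The strongest summit away from the ends was nevertheless lower in 4 of 5 genes, 80% against 54.1% of all genes. Of these calls only that of HERC3 held on both other scales. At a gene end 1 was lower and 0 higher, 20% and 0% against 28.4% and 23.8%. FKBP5 held 3 of the 6 resistant-only regions, and not all were strong. On the shared-region scale, 1 of them stood at 5.00 and 0.34 in the resistant libraries and another at 0.14 and 9.07. FKBP5, a co-chaperone of steroid receptors and a standard readout of androgen and glucocorticoid receptor activity, had the most regions of all members, 24, and none was LNCaP-only. It had 16 and 13 summits in LNCaP and 22 and 12 in the resistant cells, so the groups overlapped, unlike in 24 other members. Near its upstream start, 397 bp into the gene, percentiles were 71.5 and 86.6 in LNCaP and 77.6 and 67.1 in the resistant cells. Farther in, 1544 bp from the start, they were 75.7 and 76.3 against 42.0 and 46.8, and at a resistant-only region 2341 bp from the start they were 68.9 and 62.7, with LNCaP summits 815 and 817 bp away. These regions lie within a stretch of about 2 kb, in which the summit positions differed between the cells.

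Inside FKBP5, a region 117537 bp from the start held the strongest LNCaP summits of the gene, 95.3 and 91.5, against 81.8 and 67.5 in the resistant cells. A weak region 97858 bp from the start went from 13.3 and 27.1 to 47.1 and 31.0, and a region at the downstream annotated start stood at 89.9 and 81.9 in the resistant cells. At that start the strongest summit within 1000 bp overlapped, 87.5 and 87.4 against 89.9 and 81.9. The lower call of FKBP5 away from the ends, 95.3 and 91.5 against 89.9 and 81.9, compared 2 different regions and did not hold on either other scale, where the values overlapped.

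PMEPA1, a membrane-bound inhibitor of TGF-β signalling, had gene-end values of 71.5 and 76.8 in LNCaP and 66.7 and 51.1 in the resistant cells, and this order turned to higher in the resistant cells with equal numbers of summits. Its summits moved around the start shown above, 27 bp upstream in LNCaP replicate 1 and 493, 607 and 640 bp downstream in the others. A resistant-only region 13058 bp into the gene stood at 69.5 and 36.7. C1orf116, which encodes the androgen-regulated protein SARG, had 2 resistant-only regions, at 83.6 and 62.9 within 1730 bp of its 3′ end and at 71.1 and 69.1 a distance of 18851 bp upstream, and the latter lies 1509 bp from an end of YOD1. Its promoter was level, at 93.5 and 94.6 against 95.3 and 93.7.

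HERC3, a HECT-domain ubiquitin ligase, had 2 shared regions that moved in opposite directions, 1 of them 135681 bp into the gene falling from 94.7 and 93.0 to 61.2 and 30.3 and the other, at 88479 bp, rising from 14.6 and 28.1 to 73.1 and 46.8. NDRG1, a stress and androgen induced gene, had 5 LNCaP-only regions, of which the strongest, inside the gene, stood at 82.4 and 82.2, while its gene end overlapped at 89.9 and 87.3 against 93.6 and 89.2.

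Genes of chromosome structure and trafficking had no lower gene end against 28.4% of all genes, and 1 of 5 higher, 20% against 23.8%. Away summits were lower in 2 of 5, 40% against 54.1%, and 21 of 66 regions were LNCaP-only, 31.8% against 26.3%. NCAPD3, a condensin subunit, had 6 LNCaP-only regions and 2 annotated starts that differed. The downstream start was level at 90.3 and 89.0 against 91.4 and 90.2, and the upstream start stood at 54.6 and 44.1 in LNCaP and had no resistant summit within 1000 bp. MPHOSPH9, a centriolar phosphoprotein, held the strongest LNCaP-only region of all members, chr12:123171889-123172389, 71863 bp from the 5′ end of the gene, at 96.6 and 97.6. The nearest resistant summits were 21017 and 21022 bp away. At an annotated start within the gene MPHOSPH9 rose slightly, from 93.5 and 94.6 to 95.0 and 99.6.

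CENPN, a centromere protein, rose at its end from 84.5 and 90.5 to 92.4 and 96.7. RAB3B, a GTPase of secretory vesicles, had 5 LNCaP-only regions and overlapping promoter values, 90.8 and 89.4 against 91.8 and 83.3, and its away summits went from 97.8 and 98.4 to 94.0 and 90.3. TPD52, a vesicle protein amplified in prostate tumours, had 5 LNCaP-only regions among 21 but overlapped in both places by plain percentile, with away summits of 98.9 and 99.9 against 99.6 and 99.2. Its gene-end values compared different regions, since that of resistant replicate 1 came from the higher-coordinate end and the others from the opposite end. With equal numbers of summits, where rises are more common, the region at the higher-coordinate end rose from 71.6 and 74.4 to 92.8 and 93.4.

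Among the 87 regions shared by all libraries, 33 were lower in the resistant cells against 39.8% of all shared regions, 16 higher against 18.7%, and 38 overlapped. At the gene ends 10 were lower and 9 higher of 39, 25.6% and 23.1% against 25.7% and 25.6% of all shared regions there. Inside the genes 14 were lower and 4 higher of 28, 50% and 14.3% against 53.6% and 12.6%. In the flanks 9 were lower and 3 higher of 20, 45% and 15% against 37.6% and 19.2%. Among regions whose groups did not overlap and whose change was over the pooled SD, the falls of MED28, HERC3, ACP3, NNMT and GNMT described above were the 5 largest, from −55.3 to −37.2, and the rises of SPDEF, HERC3, NNMT, CAMKK2 and FKBP5 the 5 largest, from 58.3 to 18.9. On the scale of equal numbers, 20 were lower and 47 higher, 23.0% and 54.0% against 16.3% and 53.3% of all shared regions. On the shared-region scale 25 were lower and 32 higher, 28.7% and 36.8% against 27.8% and 37.4%. The balance of the shared regions thus turned with the scale. The 10 named regions kept their direction, but they were picked for large changes in the same scores that these scales rank again. Their kept direction is therefore not further support.

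**Figure D5:**
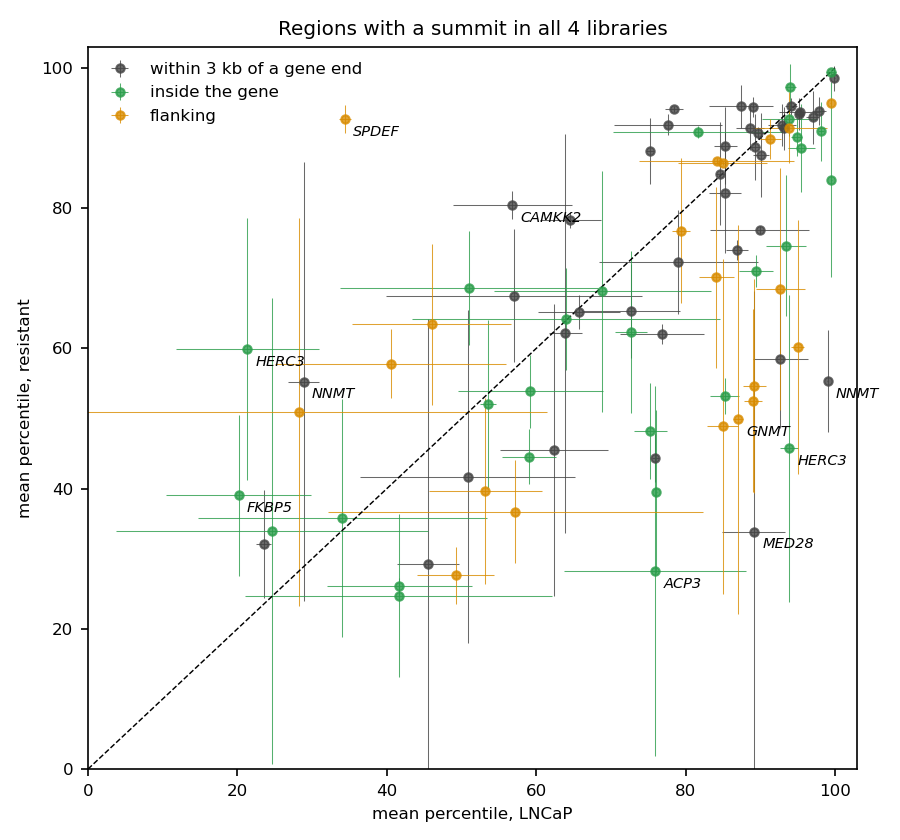
Mean percentile in resistant against LNCaP libraries for the 87 member regions with a summit in all 4 libraries, with bars of 1 SD over 2 libraries and colours for the place of the region. The 5 largest falls and 5 largest rises that passed both conditions are labelled, and SPDEF stands alone at the upper left.

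RefSeq gave 35 annotated starts for 22 of the members. A summit lay within 1000 bp of 31 of them, and it was lower in 10 against 21.4% of all protein-coding starts with a summit, higher in 5 against 28.7%, and overlapping in 16, with a median change of −1.77 against 0.60. Of the 10 lower starts, 3 belong to TRPM8 and 2 to PMEPA1, whose windows overlap. The lower starts of the members held a median of 12 CpG in the 300 bases from 250 upstream to 50 downstream (range 1 to 41). The 3 TRPM8 starts among them held 1, 2 and 4, while EAF2, ACSL3 and 1 PMEPA1 start held 31, 41 and 41. The higher starts had a median of 28 (16 to 52). Over all protein-coding starts these medians were 21 and 28.

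The motifs showed little that set the member starts apart. The half-site AGAACA was present in 4 of the 35 starts, 11.4% against 11.7% of 22198 starts, and GGGCGG in 18, 51.4% against 56.3%. CCGGAA was present in 9, 25.7% against 21.2%, TGTTTAC in 1 and TGTTTGC in 3, the latter 8.57% against 3.40%. No start held 2 exact half-sites with 3 bases between them, and with up to 2 mismatches 1 did, the PMEPA1 start at which TGAAGAATGTGTTCT lies 238 bases upstream. A match is a description of letters and not a bound site, and the regions away from the starts were not searched.

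A list of 33 other genes known to respond to androgen, among them ABCC4 and SGK1, was lower at a gene end in 9 and higher in 11, 27.3% and 33.3% against 28.4% and 23.8% of all genes. Away from the ends 19 were lower and 3 higher, 57.6% and 9.09% against 54.1% and 11.1%. Its median changes were 0.43 at the ends and −6.78 away from them, against −1.74 and −14.07 in the members. Its LNCaP-only share was 28.3%, against 28.1% in the members. The 4 kallikreins KLK2, KLK3, KLK4 and KLK15 were lower away from the ends in 2 and higher in 0, 50% and 0% against 54.1% and 11.1% of all genes. At the gene ends 1 was lower and 2 were higher, 25% and 50% against 28.4% and 23.8%. Among the higher was KLK3, which encodes prostate-specific antigen, from 4.79 and 3.46 to 82.7 and 60.6. These neighbouring genes are not separate observations, as KLK2 and KLK4 had the same away values in both resistant libraries, 94.8 and 94.2. The difference between these lists and the members was not tested.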

How the data were processed

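For each ATAC-seq library the authors deposited its peak summits, called separately, with a score on the −log10 scale (whether of p or of q is not stated) that starts just above the value for 0.05. Per the submitters' processing notes, Bowtie2 2.2.5, SAMtools 1.6 and MACS2 2.2.6 were used with hg38, and the parameters are not given in the sources used here. The lists hold no counts, so depth and the precision it gives are unknown, and shorter lists can drop weak summits. Each summit was extended by 250 bp on both sides, windows were merged across libraries into regions, and scores were turned into percentiles within a library. Regions were placed near a gene end (within 3 kb of either end), inside the gene, or in a flank of 20 kb, with gene positions, starts and sequences from RefSeq GRCh38.p14. Starts and sequences were matched for 22 of the 32 members, no exon annotation was used, and the strand of the other 10 was not used except for TMPRSS2. The genes described in full were the members with most LNCaP-only regions, the strongest LNCaP-only and resistant-only regions, and the regions and gene ends that changed most beyond the pooled SD between replicates. The members and lists were chosen with earlier results of these data known. The start window of 1000 bp and the comparison within gene lengths were chosen after seeing the data. Replicate numbers match the batch labels repeat1 and repeat2. Deviations of same-numbered libraries from their group means had a correlation of −0.0121 over shared regions. Some marker genes and lists are not reported here. No test was run, since 2 libraries against 2 cannot pass a threshold. The steps were tested on simulated lists. The scripts ran in Python 3.11.15 with pandas 2.3.3 and numpy 2.4.6, and figures were drawn with matplotlib 3.10.9.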

Additional observations from a re-analysis of the deposited data

How the results depend on the processing

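With equal numbers of summits there were 35 LNCaP-only and 24 resistant-only member regions, 5 members lower and 19 higher at a gene end, and 14 lower away from the ends, with median changes of 13.4 and −1.35. Ranked among shared regions, 6 members were lower and 15 higher at a gene end, with a median of 5.19. The shares of all genes or regions for these counts are given above. A score of at least 10 left 44 LNCaP-only regions, 20.4% against 23.8% of all regions, so the share fell below that of all regions. Presence in at least 1 library gave 182 LNCaP-only and 34 resistant-only regions, 50.6% against 49.6% and 9.44% against 12.5%. Windows of 100 bp gave 14 resistant-only regions, 3.32% against 3.98% of all regions, and flanks of 50 kb gave 16, 2.99% against 3.83%. With those flanks the median change away from the ends was −4.78 in place of −14.07, against −4.36 over all genes. Gene ends of 1 kb gave −7.78 away from the ends against −7.72 over all genes. The replicate block gave 9 members higher at a gene end in place of 5, against 30.0% of all genes, and changed no other count by over 1.5 times. Leaving out each library in turn gave 110 to 147 LNCaP-only regions, against 27.5% to 44.5% of all regions. Resistant-only regions numbered 14 to 30, against 5.26% to 11.6%. At a gene end 11 to 18 members were lower against 31.9% to 48.8% of all genes, and 5 to 16 higher against 28.7% to 44.7%. Away from the ends 25 to 26 were lower, 78.1% to 81.3% against 56.7% to 71.7%. The medians were −4.38 to 0.87 at the ends and −20.0 to −5.48 away from them. The last value of each median and the 30 and 16 come from leaving out resistant replicate 2, the shortest list. Leaving out resistant replicate 1 gave the 18 members lower at a gene end. With 1 library left in a group, the calls compare fewer values. A gene called with all 4 libraries then keeps its call and further genes can be called. Other causes of these shifts were not tested.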
